A study of Rattus norvegicus with 6 samples.

Results

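The genes described are the ligands and receptors of axon guidance: semaphorins with their plexin and neuropilin receptors, ephrins with their Eph receptors, Slits with their Robo receptors, and netrins with the receptors Dcc and Unc5. They were chosen by symbol from the protein-coding entries of the authors' table, which gave 73 of its 37991 genes, and no measured value entered the choice. The RNA was that of SD rat cells of the oligodendrocyte lineage kept in culture, the cells that make myelin in the central nervous system. Precursors before differentiation, grown in Raff medium, are the control condition (3 libraries). Differentiated cells came from Raff medium cultures after a change of growth factors (3 libraries). Titles number the libraries 1, 2 and 5 in each group, and those of numbers 1 and 2 give day 0 for precursors and day 3 for differentiated cells. No allele or drug is named for either group. The labels leave unsaid if libraries of a group come from separate cultures, so a p-value here covers the spread among these samples, which may be technical. Values by library are given in the order 1, 2, 5.

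Guidance molecules were named for steering growing axons, but glial cells make and sense them too. Semaphorins act through plexins, with neuropilins as partners for most of the secreted class 3 semaphorins. Ephrins and Eph receptors meet on touching cells, and both sides can signal. Netrins attract through Dcc and repel through Unc5 receptors, while Slits repel through Robo receptors. In oligodendrocyte development, secreted semaphorins and netrin 1 are known to steer migrating precursors, and Sema4d is known as a semaphorin of myelinating oligodendrocytes.

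Total counts were 55522101 to 79898629 per library, and 1 CPM (a read count scaled for library size with edgeR's TMM factors) stood for 54.9 to 72 reads. All 10 myelin genes checked were higher in differentiated libraries, with a summed level of 1430 to 2250 CPM in precursors and 18700 to 22100 CPM after differentiation. Of 8 genes listed as precursor or lineage markers and tested, 0 were lower and 0 higher (summed 1270 to 2250 and 1440 to 2070 CPM). They were Pdgfra, Cspg4, Ptprz1, C1ql1, Sox6, Olig1, Olig2 and Sox10. RNA of other cell types was present. For the counts that follow, 5.65% of all genes tested were higher and 3.21% lower. Of 11 astrocyte markers tested 5 were higher and 0 lower, and they summed to 4240 to 5950 CPM in precursors and 7580 to 7820 CPM after differentiation. Of 13 neuron markers 1 was higher and 2 lower (summed 261 to 460 and 287 to 326 CPM). Microglia markers (1 higher, 0 lower of 12) summed to 474 to 1240 and 456 to 896 CPM, and fibroblast and pericyte markers (1 higher, 0 lower of 9) to 127 to 368 and 63.7 to 224 CPM. Endothelial markers (0 of 9 called) summed to 19.5 to 52.2 and 23.8 to 44 CPM, and Schwann, choroid and ependymal markers (1 lower of 8) to 316 to 475 and 201 to 262 CPM. With the replicate number as a block (described below), 14.9% of all genes were higher and 15.7% lower. Precursor or lineage markers then gave 4 higher (Cspg4, C1ql1, Olig2 and Sox10) and 1 lower (Ptprz1). Astrocyte markers gave 8 higher and 0 lower, neuron markers 1 higher and 4 lower and microglia markers 2 higher and 3 lower. Fibroblast and pericyte markers then gave 1 higher and 6 lower, endothelial markers 1 higher and 0 lower, and Schwann, choroid and ependymal markers 1 higher and 2 lower. The endothelial gene Cldn5 and the pericyte gene Rgs5 had 0 reads in all 6 libraries. In whole cultures, fewer cells of a type and less RNA per cell cannot be told apart, and the part of other cell types in the results was not tested.

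Of the 73 guidance genes, 67 passed the filter on low counts and were tested. In differentiated libraries 8 were higher (Plxnb3, Unc5b, Sema4d, Efna1, Sema5a, Ephb1, Sema3d and Sema3e) and 4 were lower (Sema3a, Ntng1, Epha5 and Epha7), by edgeR's quasi-likelihood test at a Benjamini-Hochberg adjusted p under 0.05 over all genes. These are 17.9% of the guidance genes tested, beside 8.86% called among all 17797 genes tested (5.65% higher and 3.21% lower). The median log2 fold change of differentiated over precursor libraries, called the log2 difference below, was -0.04 for the guidance genes and -0.04 for all genes. Ligands gave 5 higher and 2 lower of 36 tested and receptors 3 higher and 2 lower of 30 tested. Ranges of the 3 libraries of each group stood apart for 34.3% of the tested guidance genes (10 higher and 13 lower), beside 30.3% of all genes (16.5% and 13.8%).

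Same-numbered libraries of both groups deviated together, so the replicate number was also used as a block. This replicate block gave 14 higher and 17 lower among the guidance genes, beside 14.9% and 15.7% of all genes (30.6% together). Values were higher in all 3 same-numbered pairs for 18 of the 67 guidance genes tested, beside 5175 of all 17797 genes. They were lower in all 3 pairs for 25, beside 5757, so agreement of the pairs was common among all genes. Without both replicate 1 libraries there were 10 higher and 12 lower, beside 8.69% and 8.29% of all genes (17.0% together). In each of these fits all 12 genes named above were called again in the same direction. DESeq2 gave 10 higher and 8 lower (7.29% and 5.98% of all genes), the 12 genes with Sema6a and Sema6b higher and Epha6, Ephb3, Nrp2 and Robo2 lower. With library size alone as the scaling there were 6 higher and 6 lower (3.81% and 5.65% of all genes), so that 50% of calls were higher against 66.7% with TMM, and the median of all genes moved to -0.19. With no filter there were 7 higher and 4 lower (3.83% and 2.1% of all genes). On the authors' TPM, limma gave 5 higher and 2 lower (2.72% and 5.61% of all genes) with log2(TPM + 1), 5 higher and 2 lower (2.79% and 5.96% of all genes) with log2(TPM + 0.1), and 3 higher and 1 lower (1.04% and 1.60% of all genes) with log2(TPM + 1) and no filter.

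The number of calls turned on single libraries. Without precursor 1 there were 6 higher and 7 lower (5.11% and 3.23% of all genes), without precursor 2 there were 4 higher and 2 lower (2.87% and 0.927% of all genes), and without precursor 5 there were 7 higher and 2 lower (3.59% and 1.49% of all genes). Leaving out differentiated 1 gave 10 higher and 4 lower (5.12% and 3.25% of all genes), leaving out differentiated 2 gave 4 higher and 3 lower (2.56% and 0.910% of all genes), and leaving out differentiated 5 gave 5 higher and 2 lower (2.83% and 0.978% of all genes). Each of the 12 genes kept its direction in all 14 alternative fits. The groups of each did not overlap, so the fits that left out libraries could hardly reverse a direction. Of the 12 genes, 6 (Plxnb3, Unc5b, Sema4d, Efna1, Sema3a and Epha7) passed in each of the 6 fits that left out 1 library.

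**Figure D1:**
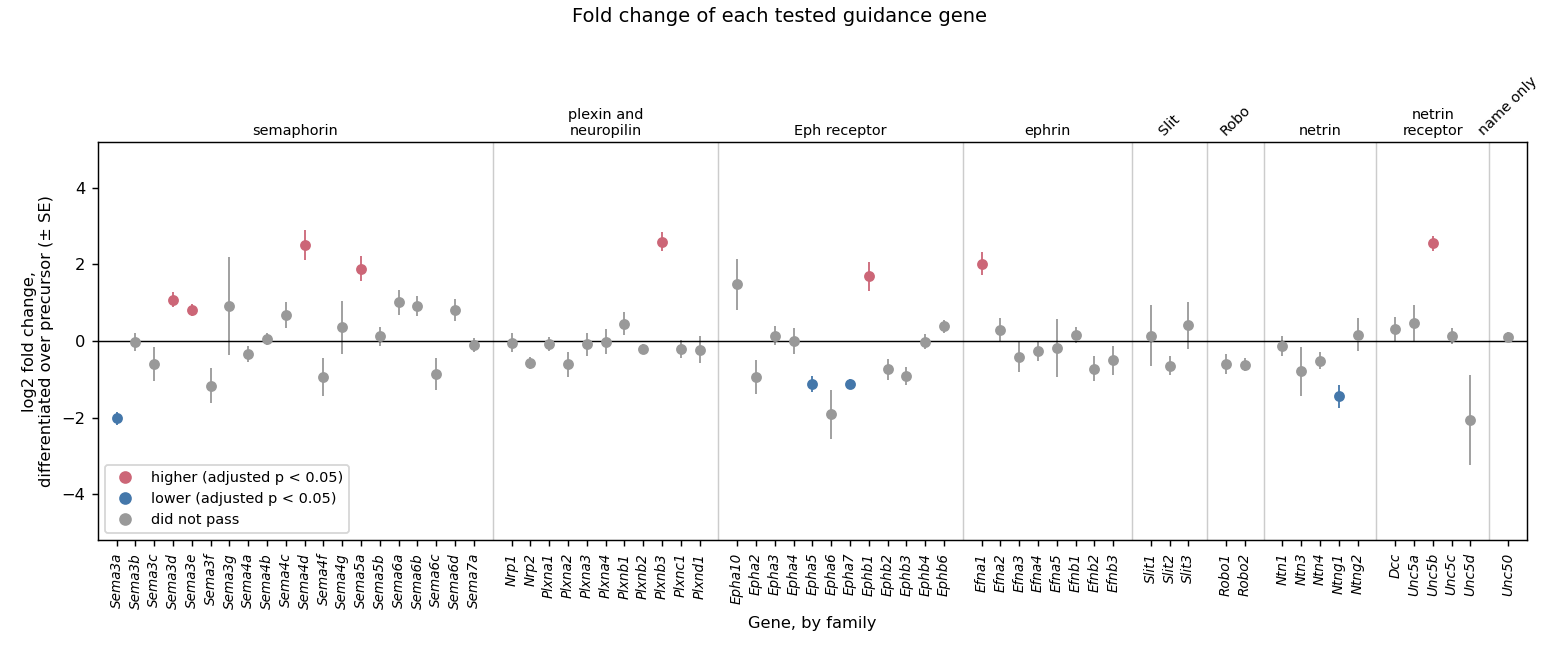
Log2 fold change of differentiated over precursor libraries (vertical axis, with SE bars) for each of the 67 tested guidance genes, grouped by family. Red and blue points passed the test as higher and lower, and grey points did not. Plxnb3 (2.60), Unc5b (2.55) and Sema4d (2.51) lie highest, while Sema3a (-2.02) is the lowest of those that passed.

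The promoter windows printed here belong to the genes with the lowest adjusted p that had a sequence: the netrin receptor Unc5b and the plexin Plxnb3, which rose, and the Eph receptor Epha7, which fell. RefSeq sequences of the assembly GRCr8 were matched for 57 of the 73 genes and for 9 of the 12 that passed the test (Sema3a, Sema4d and Sema5a had none). Each window holds the 250 bases before the start that RefSeq gives (Plxnb3 at chrX:156646624-156646873, plus strand, Unc5b at chr20:29307271-29307520, minus strand, Epha7 at chr5:47771643-47771892, plus strand). Which start these cultures used was not measured. Sequences run 5′ to 3′ on the gene's strand, and capitals mark matches on either strand to the motifs searched.

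Plxnb3: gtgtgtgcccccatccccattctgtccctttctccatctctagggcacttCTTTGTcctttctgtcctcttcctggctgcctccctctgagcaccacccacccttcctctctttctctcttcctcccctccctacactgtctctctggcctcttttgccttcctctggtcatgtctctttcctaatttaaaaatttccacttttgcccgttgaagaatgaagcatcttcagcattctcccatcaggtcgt
Unc5b: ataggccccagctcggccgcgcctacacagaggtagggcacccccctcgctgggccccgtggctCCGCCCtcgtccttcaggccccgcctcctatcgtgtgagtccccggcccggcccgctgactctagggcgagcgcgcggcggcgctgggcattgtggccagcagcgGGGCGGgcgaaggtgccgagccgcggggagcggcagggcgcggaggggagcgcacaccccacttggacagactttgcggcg
Epha7: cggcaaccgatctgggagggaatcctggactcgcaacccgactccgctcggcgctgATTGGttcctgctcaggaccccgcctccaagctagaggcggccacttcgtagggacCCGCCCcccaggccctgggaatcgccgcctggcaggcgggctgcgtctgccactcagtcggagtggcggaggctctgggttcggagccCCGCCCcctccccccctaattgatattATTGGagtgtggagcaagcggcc

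The Plxnb3 window holds ACAAAG, a SOX type motif, on the other strand. The Unc5b window holds GGGCGG, the GC box, on both strands, and the Epha7 window holds GGGCGG and CCAAT on the other strand. Unc5b and Epha7 moved in opposite directions, and the windows of both hold the GC box. G and C make up 50.8% of the Plxnb3 window with 2 CG pairs, 75.2% of the Unc5b window with 30, and 67.6% of the Epha7 window with 20. Over the 57 windows of guidance genes the median GC content was 62% with 14 CG pairs, beside 51.2% and 5 over all 33469 windows. Repeated windows of a gene were removed for guidance genes, which are all protein-coding. The set of all windows was limited in neither way, so the sets may differ in kind. The GC box was in 56.1% of guidance windows and 30.5% of all, CCAAT in 33.3% and 34%, and ACAAAG in 14% and 16.3%. The other letters searched were TATAAA (the TATA box, in 0 guidance windows and 12.9% of all), AACAAT (another SOX type motif, 3.5% and 10.3%), CAGCTG (an E-box, 21.1% and 12%) and CAGATG (another E-box, 7% and 14%). The Myrf type motifs CTGGCAC and CTGGTAC were in 1.8% and 3.5% of guidance windows (3.8% and 1.8% of all). Among the 9 windows of genes that passed the test, 4 held the GC box (Efna1, Epha7, Sema3e and Unc5b), 3 held CCAAT (Epha7, Ephb1 and Sema3d) and 2 held ACAAAG (Plxnb3 and Sema3d). A match describes letters, not a bound site.

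Semaphorins, the ligands of plexins, gave 4 higher and 1 lower of 20 tested, beside 5.65% and 3.21% of all genes. Sema4d (306790), a membrane semaphorin known from oligodendrocytes, was at 12.5, 5.38 and 5.47 CPM in precursors and at 31.2, 48.5 and 53.1 CPM in differentiated libraries. The groups did not overlap, and replicate 1 was the highest precursor and the lowest differentiated library. Sema4d rose 5.7-fold, a log2 difference of 2.51 ± 0.39 (SE, edgeR adjusted p = 0.00883), and the log2 difference was 3.23 without both replicate 1 libraries. Sema5a (310207), a membrane semaphorin with thrombospondin repeats, was at 15.5, 23.6 and 38.6 CPM in precursors and at 80.8, 97.4 and 111 CPM in differentiated libraries. Every differentiated library lay above every precursor library. Sema5a rose 3.72-fold, a log2 difference of 1.89 ± 0.32 (SE, edgeR adjusted p = 0.0134). Leaving out precursor 2, differentiated 2 or differentiated 5 ended the Sema5a call, at an edgeR adjusted p up to 0.0739.

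The secreted class 3 semaphorins, which bind neuropilins or plexins, moved in different directions. Of 7 tested, 2 were higher and 1 lower, beside 5.65% and 3.21% of all genes. Sema3a (29751), a repellent that acts through neuropilin 1, was at 62.7, 53.9 and 73.3 CPM in precursors and at 14.3, 14.2 and 18.3 CPM in differentiated libraries. The highest differentiated library was far below the lowest precursor library. Sema3a fell 4.06-fold, a log2 difference of -2.02 ± 0.17 (SE, edgeR adjusted p = 0.000827). Sema3d (246262), another secreted member, was at 16.7, 21.7 and 24.8 CPM in precursors and at 52.3, 40.6 and 40.8 CPM in differentiated libraries, with no overlap. Sema3d rose 2.12-fold, a log2 difference of 1.08 ± 0.19 (SE, edgeR adjusted p = 0.0141). Sema3e (296789), which binds plexin D1 without a neuropilin, was at 13.2, 13.9 and 16.2 CPM in precursors and at 21.6, 27.9 and 27.3 CPM in differentiated libraries, again with no overlap. Its rise was smaller, 1.77-fold, with a log2 difference of 0.82 ± 0.16 (SE, edgeR adjusted p = 0.0232). Leaving out precursor 2 or differentiated 2 ended the Sema3d call, and leaving out precursor 1, precursor 2, differentiated 2 or differentiated 5 ended that of Sema3e, at edgeR adjusted p up to 0.0663 and 0.136. Sema3a and Sema3d, which moved in opposite directions, are neighbours on chromosome 4 of GRCr8 with 0 protein-coding genes between them, and 12 lie between Sema3e and Sema3a.

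Sema3c (296787), a further secreted semaphorin, had the highest mean TPM of the semaphorins in precursors (TPM is the authors' value per transcript length). It was at 140, 60.7 and 75.5 CPM in precursors and at 102, 38.1 and 42.2 CPM in differentiated libraries. Replicate 1 was the highest library of each group and the groups overlapped, so Sema3c was not called over all libraries, with a log2 difference of -0.60 ± 0.45 (SE, edgeR adjusted p = 0.487). It was lower in 3 of 3 same-numbered pairs, as were 5757 of all 17797 genes tested. The replicate block gave Sema3c a log2 difference of -0.66 at an edgeR adjusted p of 0.00269. Sema3f (315996), a ligand of neuropilin 2, was at 3.33, 2.81 and 2.61 CPM and at 2.23, 0.914 and 0.728 CPM, and its groups stood apart without a call (log2 difference -1.17, edgeR adjusted p = 0.179, and 0.0255 with the block). As a share of the TPM of the 7 class 3 genes, Sema3a went from 15.8, 33.1 and 31.9% to 6.89, 12.4 and 13.5%. Sema3d went from 8.08, 14.2 and 14% to 27.2, 33.9 and 32.1% of the same sum. On that scale Sema3d lay below Sema3a in each precursor library and above it in each differentiated library. The class summed to 40.5, 35.2 and 49.1 TPM in precursors and 32.6, 24.1 and 27.4 TPM after differentiation, and these sums were not tested.

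Class 6 semaphorins, membrane ligands of A-type plexins, were not called by edgeR over all libraries, while DESeq2 called Sema6a and Sema6b higher (adjusted p = 0.0205 and 0.0198). Sema6a (361324), the semaphorin with the highest mean TPM after differentiation, was at 43.9, 47 and 77.6 CPM in precursors and at 72.1, 109 and 159 CPM in differentiated libraries. It was higher in 3 of 3 pairs, while the highest precursor lay above the lowest differentiated library (log2 difference 1.01, edgeR adjusted p = 0.114, and 0.00105 with the block). Sema6d (311384) was at 37.4, 36.5 and 55.7 CPM and at 47.5, 79.7 and 99.2 CPM, also higher in each pair (log2 difference 0.81, edgeR adjusted p = 0.149, and 0.00941 with the block). Sema6b (84609) was at 3.7, 5.86 and 6.36 CPM and at 9.89, 8.18 and 11.9 CPM, without overlap (log2 difference 0.91, edgeR adjusted p = 0.0824, and 0.0157 with the block). The values of Sema6c (29744) pointed the other way, at 2.87, 4.72 and 7.24 CPM and at 1.98, 2.19 and 4.02 CPM (log2 difference -0.86, edgeR adjusted p = 0.282, and 0.0223 with the block). The class 4 gene Sema4c (301346) was at 4.41, 2.61 and 5.29 CPM and at 7.48, 4.68 and 7.59 CPM, higher in each pair (log2 difference 0.68, edgeR adjusted p = 0.27, and 0.0186 with the block). Sema7a, a lipid-anchored ligand of plexin C1 and integrins, was at 22.6 ± 0.777 and 21.2 ± 4.85 CPM (SD, n = 3, edgeR adjusted p = 0.813). Sema3b, Sema3g, Sema4a, Sema4b, Sema4f, Sema4g and Sema5b were not called over all libraries, with the block or without replicate 1. Sema3g had 0 reads in differentiated 2 and 13 to 53 in the other libraries, and a lone 0 may be an estimate that failed.

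**Figure D2:**
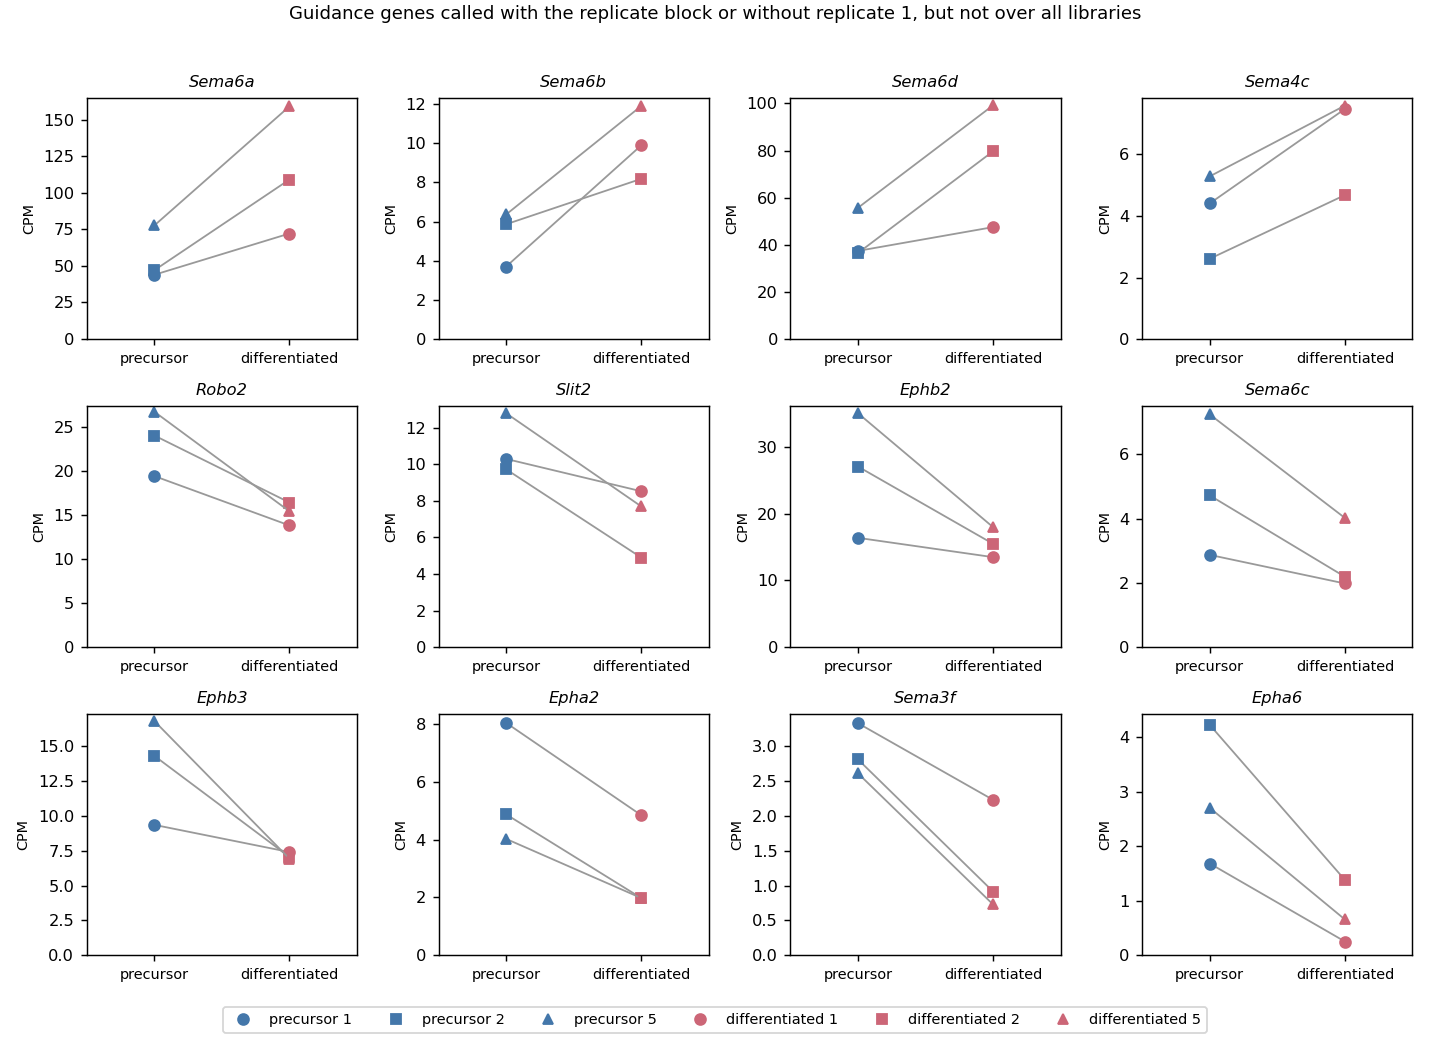
CPM (vertical axes, from 0) of 12 guidance genes not called by edgeR with group as the only term. They were called with the replicate block or without both replicate 1 libraries, and were chosen for the largest fold change. Lines join same-numbered libraries. All lines of Sema6a, Sema6b, Sema6d and Sema4c go up, and all lines of the other 8 genes go down. The choice of genes used fits on these pairs, so lines that run the same way were largely set by it. Of all 17797 genes tested, 5175 were higher and 5757 lower in all 3 pairs.

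Plexins are the signalling receptors of semaphorins. Plexins and neuropilins gave 1 higher and 0 lower of 11 tested, beside 5.65% and 3.21% of all genes. Plxnb3 (363517), a receptor of Sema5a, was at 37.9, 41.3 and 55.4 CPM in precursors and at 194, 283 and 338 CPM in differentiated libraries. The lowest differentiated library was well above the highest precursor library. Plxnb3 rose 6.06-fold, a log2 difference of 2.60 ± 0.24 (SE, edgeR adjusted p = 0.00124). Plxnb2 (315217), a B-type plexin, was at 271, 218 and 257 CPM in precursors and at 226, 191 and 224 CPM in differentiated libraries. Its groups overlapped, and it was lower in 3 of 3 pairs (log2 difference -0.22, edgeR adjusted p = 0.35, and 0.0256 with the block). Per transcript length, Plxnb2 held 51.4, 51 and 46.9% of the TPM of all 9 plexins in precursors and 36, 28.9 and 27.7% after differentiation. Plxnb3 held 8.01, 10.2 and 10.9% and then 32.9, 46 and 44.8%. On that scale Plxnb3 was below Plxnb2 in every precursor library, and above it in differentiated 2 and 5 but not in differentiated 1.

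Plxnb1 (316009), a receptor of Sema4d, was at 34.1, 46.4 and 66.5 CPM in precursors and at 47.1, 64 and 89.7 CPM in differentiated libraries. It was higher in 3 of 3 pairs and called with the block only, among the edgeR fits over all libraries and those with a block or without replicate 1 (log2 difference 0.45, edgeR adjusted p = 0.437, and 0.00347 with the block). Plxnd1 (312652), the receptor of Sema3e, was highest in replicate 1 of each group, at 77, 34.7 and 48.4 CPM and at 63, 30.4 and 42.6 CPM (log2 difference -0.23, edgeR adjusted p = 0.755, and 0.0546 with the block). Sema4d and Sema3e were called while Plxnb1 and Plxnd1 were not called over all libraries, although Plxnb1 was higher in each pair. Sema5a and Plxnb3 were both called higher, and the Sema5a call ended in 3 of the 6 fits that left out 1 library. A link between the levels of ligands and receptors was not tested. Among A-type plexins, which pair with neuropilins, Plxna1 was at 46.1 ± 8.58 and 44 ± 6.45 CPM, Plxna3 at 26.9 ± 7.1 and 25.3 ± 9.17 CPM and Plxna4 at 7.04 ± 2.66 and 6.93 ± 1.79 CPM (SD, n = 3). Plxna2 (289392) was at 26.4, 20.1 and 38.8 CPM and at 12.8, 17.9 and 25.4 CPM (log2 difference -0.61, edgeR adjusted p = 0.306, and 0.0344 with the block). Nrp1, the coreceptor of Sema3a, was at 18.1, 11.7 and 14.9 CPM in precursors and at 19.3, 12.2 and 11.8 CPM in differentiated libraries, with a log2 difference of -0.04 ± 0.25 (SE, edgeR adjusted p = 0.947). Nrp2 (81527), the coreceptor of Sema3c and Sema3f, was at 47.1, 33.5 and 40.3 CPM in precursors and at 30, 24.6 and 26.2 CPM in differentiated libraries. The groups of Nrp2 stood apart with no call over all libraries (log2 difference -0.58, edgeR adjusted p = 0.0725, and 0.00359 with the block), and it was called without replicate 1 (edgeR adjusted p = 0.0481) and by DESeq2 (adjusted p = 0.0168).

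**Figure D3:**
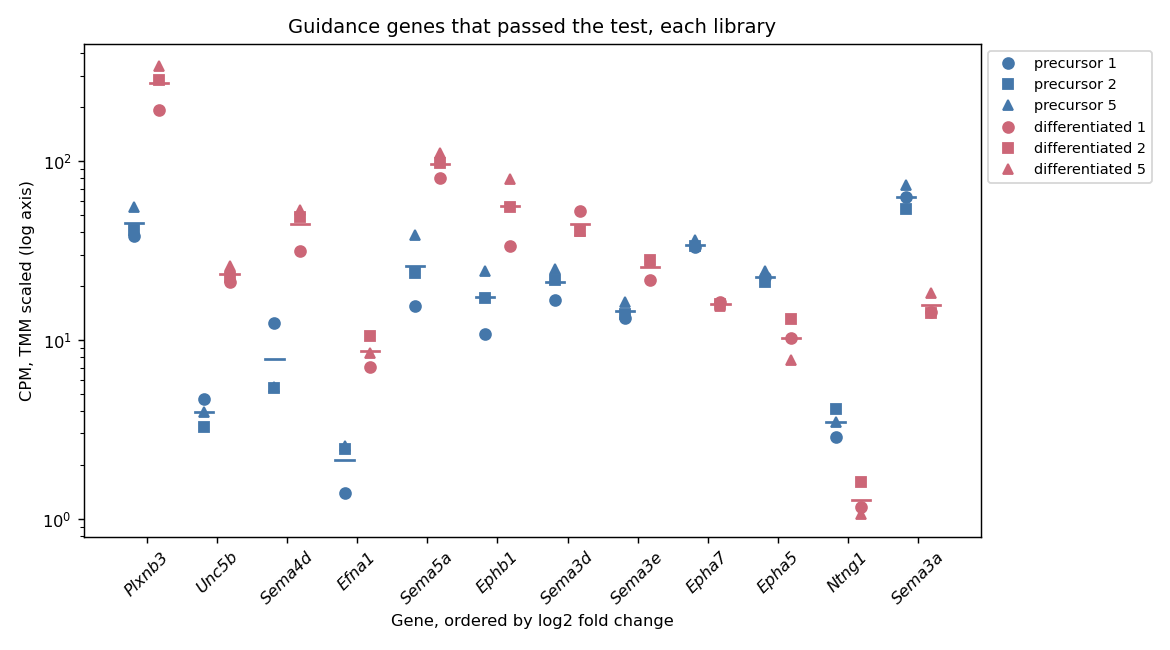
CPM (log axis) of the 12 guidance genes that passed the test in each precursor and differentiated library, with bars at group means and a marker shape for each replicate number. The groups of a gene do not overlap. Plxnb3 reaches 338 CPM, while Ntng1 stays at or below 4.11 CPM.

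Eph receptors are the receptor tyrosine kinases that bind ephrins on neighbouring cells. Of 12 tested, 1 was higher and 2 lower, beside 5.65% and 3.21% of all genes. Epha7 (171287), an A-type receptor, was at 33, 33.4 and 36 CPM in precursors and at 16.2, 15.9 and 15.5 CPM in differentiated libraries. Libraries of a group lay close together and the groups far apart. Epha7 fell 2.15-fold, a log2 difference of -1.11 ± 0.12 (SE, edgeR adjusted p = 0.00204). Epha5 (79208), also A-type, was at 22.4, 21 and 24.2 CPM in precursors and at 10.3, 13 and 7.72 CPM in differentiated libraries, with no overlap. Epha5 fell 2.18-fold, a log2 difference of -1.13 ± 0.21 (SE, edgeR adjusted p = 0.019). Leaving out precursor 2, precursor 5 or differentiated 5 ended the Epha5 call, at an edgeR adjusted p up to 0.0673. Epha6 (29202) was low, at 1.68, 4.22 and 2.7 CPM and at 0.251, 1.38 and 0.655 CPM, and stood apart without a call by edgeR over all libraries (log2 difference -1.91, edgeR adjusted p = 0.126, and 0.00464 with the block), while DESeq2 called it lower (adjusted p = 0.0306). Epha2 (366492) was at 8.05, 4.88 and 4.03 CPM and at 4.85, 1.98 and 1.98 CPM (log2 difference -0.94, edgeR adjusted p = 0.262, and 0.01 with the block). Among the other A-type receptors, Epha4 was at 16.8 ± 6.06 and 16.9 ± 6.74 CPM and Epha3 at 7.66 ± 0.634 and 8.44 ± 2.5 CPM (SD, n = 3). Epha10, a receptor without kinase activity, was at 0.267, 0.908 and 0.403 CPM and at 2.22, 0.604 and 1.58 CPM with no call, and with a log2 difference of 1.48 ± 0.66 (SE, edgeR adjusted p = 0.237).

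B-type Eph receptors gave 1 higher and 0 lower of 5 tested, beside 5.65% and 3.21% of all genes. Ephb1 (24338) was at 10.8, 17.1 and 24.4 CPM in precursors and at 33.6, 55.4 and 79.4 CPM in differentiated libraries. The groups did not overlap, although the libraries of each spanned more than 2-fold. Ephb1 rose 3.22-fold, a log2 difference of 1.69 ± 0.38 (SE, edgeR adjusted p = 0.0384). It had the highest adjusted p of the 12 genes, and leaving out any library but differentiated 1 ended the call, at an edgeR adjusted p up to 0.138, whereas the replicate block gave 6.75e-05. Ephb2 (313633) was at 16.4, 27.1 and 35.1 CPM and at 13.5, 15.5 and 18 CPM (log2 difference -0.74, edgeR adjusted p = 0.167, and 0.0154 with the block). Ephb3 (287989) was at 9.35, 14.3 and 16.8 CPM and at 7.4, 7.05 and 6.92 CPM, with its groups apart (log2 difference -0.92, edgeR adjusted p = 0.0556, and 0.0176 with the block). DESeq2 also called Ephb3 lower (adjusted p = 0.00536), as did edgeR with library size alone (adjusted p = 0.0491). Ephb4 was at 11.6 ± 1.66 and 11.5 ± 2.03 CPM, and Ephb6, which lacks kinase activity, at 13.9 ± 1.59 and 18.3 ± 2.3 CPM (SD, n = 3), the latter with its groups apart (log2 difference 0.39, edgeR adjusted p = 0.215, and 0.0331 with the block). Per transcript length, Ephb1 went from 6.96, 9.69 and 11.9% to 22.3, 33.5 and 40.3% of the TPM of the 14 Eph genes. Ephb2 went from 17.5, 25.1 and 28.1% to 14.7, 15.4 and 14.9%, and Epha7 from 19.1, 15.8 and 14.8% to 10, 7.74 and 7.22%. On that scale Ephb1 lay below Ephb2 in every precursor library and above it in every differentiated one.

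Ephrins, the membrane ligands of Eph receptors, gave 1 higher and 0 lower of 8 tested, beside 5.65% and 3.21% of all genes. Efna1 (94268), a lipid-anchored A-type ephrin, was at 1.4, 2.45 and 2.56 CPM in precursors and at 7.04, 10.5 and 8.48 CPM in differentiated libraries. The groups did not overlap. Efna1 rose 4.06-fold, a log2 difference of 2.02 ± 0.30 (SE, edgeR adjusted p = 0.00797), and its largest edgeR adjusted p without 1 library was 0.0499. Efnb1 (25186), a transmembrane B-type ephrin with the highest mean TPM of the family, was at 15.9, 23.1 and 23.1 CPM in precursors and at 18.2, 23.8 and 27.5 CPM in differentiated libraries. Its groups overlapped, with a log2 difference of 0.16 ± 0.22 (SE, edgeR adjusted p = 0.723), and the sign changed without precursor 1 and on the TPM scale. Efna1 held 4.74, 9.07 and 9.02% of the TPM of the 8 ephrins in precursors and 25.2, 29.5 and 23.6% after differentiation. Efnb1 held 34.2, 40.4 and 38.7% and then 32.1, 33.9 and 38.5%, above Efna1 in each library. Efna1, Efna3 and Efna4 follow each other in GRCr8 with 0 protein-coding genes between them, and Efna3 and Efna4 were not called (log2 differences -0.42 and -0.27, edgeR adjusted p = 0.595 and 0.601). Efna2, Efna5, Efnb2 and Efnb3 were not called either, at log2 differences of 0.30, -0.19, -0.72 and -0.50.

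**Figure D4:**
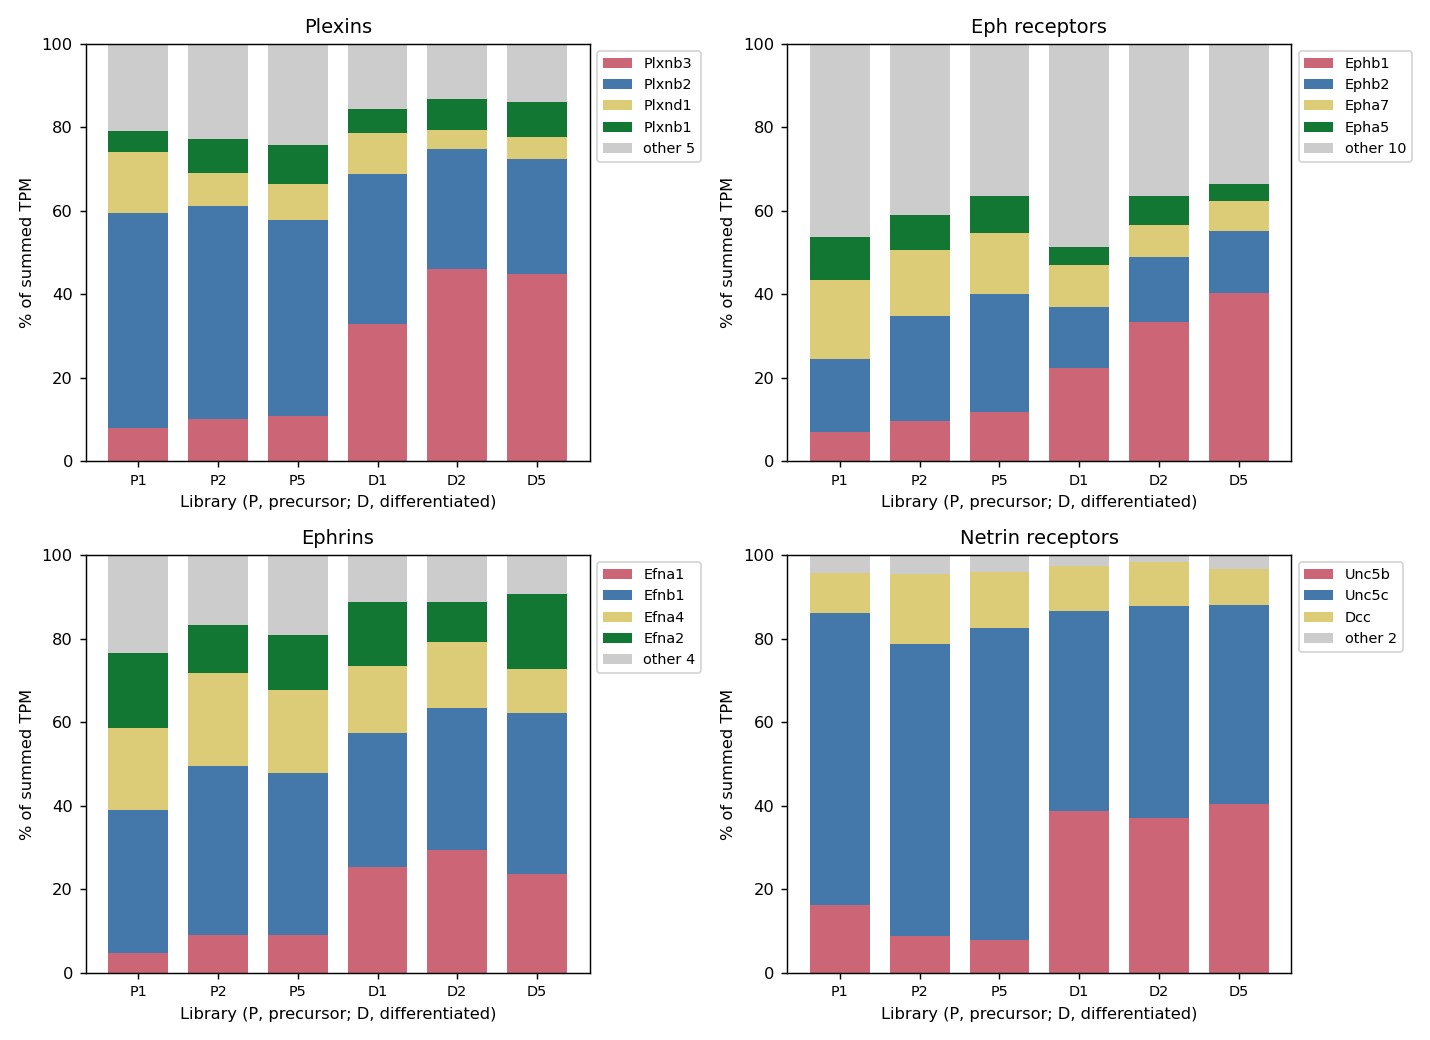
Share of each gene in the summed TPM of its family (vertical axis, percent) in each library, for plexins, Eph receptors, ephrins and netrin receptors. The shares of Plxnb3, Ephb1, Efna1 and Unc5b are larger in every differentiated library than in any precursor library.

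Netrin receptors gave 1 higher and 0 lower of 5 tested, beside 5.65% and 3.21% of all genes. Unc5b (60630), a repulsive netrin receptor that also carries a death domain, was at 4.66, 3.26 and 3.96 CPM in precursors and at 21.2, 22.5 and 26 CPM in differentiated libraries. Every differentiated library lay far above the precursors. Unc5b rose 5.86-fold, a log2 difference of 2.55 ± 0.20 (SE, edgeR adjusted p = 0.000572), and its largest edgeR adjusted p without 1 library was 0.00669. Unc5c (362049), the receptor of this family with the highest mean TPM, was at 32.3, 41.1 and 58.3 CPM in precursors and at 43.7, 50.4 and 50.7 CPM in differentiated libraries. The groups overlapped, with a log2 difference of 0.14 ± 0.21 (SE, edgeR adjusted p = 0.769), and the sign changed with library size alone, on the TPM scale and without precursor 1. Unc5b held 16.1, 8.81 and 7.89% of the TPM of the 5 receptors in precursors and 38.7, 37 and 40.4% after differentiation. Unc5c held 70, 69.9 and 74.6% and then 47.9, 50.9 and 47.7%, above Unc5b in each library. Dcc (25311), the attractive receptor, was at 4.74, 8.78 and 11.3 CPM and at 10.3, 10.9 and 9.79 CPM, with a log2 difference of 0.32 ± 0.31 (SE, edgeR adjusted p = 0.604). Unc5a was at 0.685 ± 0.0751 and 0.948 ± 0.427 CPM (SD, n = 3). Unc5d was at 0.455, 1.34 and 1.53 CPM and at 0.502, 0 and 0.291 CPM, where the 0 may be an estimate that failed (edgeR adjusted p = 0.35).

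Netrins, the ligands, gave 0 higher and 1 lower of 5 tested, beside 5.65% and 3.21% of all genes. Ntn1 (114523), the secreted netrin 1 that binds Dcc and Unc5 receptors, held 74.6, 73.7 and 78.2% of netrin TPM in precursors and 82.5, 79.2 and 80.2% after differentiation. Its level was 31, 43.9 and 67.6 CPM and then 42.9, 40 and 47.1 CPM. The precursor range enclosed the other group, with a log2 difference of -0.13 ± 0.27 (SE, edgeR adjusted p = 0.823), and the log2 difference was 0.21 without precursor 5. Ntng1 (295382), netrin G1, is a lipid-anchored protein that binds other partners than Dcc and Unc5. It was at 2.87, 4.11 and 3.46 CPM in precursors and at 1.17, 1.61 and 1.06 CPM in differentiated libraries, without overlap. Ntng1 fell 2.72-fold, a log2 difference of -1.44 ± 0.30 (SE, edgeR adjusted p = 0.0272). Leaving out any library but precursor 1 ended the call, at an edgeR adjusted p up to 0.111. Ntn4, which also binds laminins, was at 7.86, 10.6 and 11.6 CPM and at 6.44, 8.37 and 6.3 CPM (log2 difference -0.51, edgeR adjusted p = 0.218, and 0.0592 with the block). Ntn3 and Ntng2 were not called, at log2 differences of -0.79 and 0.17.

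Of 3 Slits and 2 Robos tested, 0 were called by edgeR over all libraries (8.86% of all genes), and DESeq2 called 1 (Robo2). Robo1 (58946), a Slit receptor, was at 15.9, 22.1 and 25.1 CPM and at 9.67, 15.3 and 17 CPM, overlapping but lower in 3 of 3 pairs (log2 difference -0.59, edgeR adjusted p = 0.238, and 0.00573 with the block). Robo2 (84409), also a Slit receptor, was at 19.4, 24 and 26.7 CPM and at 13.8, 16.4 and 15.4 CPM, with its groups apart (log2 difference -0.62, edgeR adjusted p = 0.0665, and 0.00659 with the block). The DESeq2 call of Robo2 had an adjusted p of 0.0159. Slit2 (360272), the ligand with the highest mean TPM of the Slits, was at 10.3, 9.73 and 12.8 CPM and at 8.53, 4.9 and 7.7 CPM. Slit2 was lower in each pair and stood apart without a call over all libraries (log2 difference -0.64, edgeR adjusted p = 0.18, and 0.0277 with the block). Slit1 was at 1.02 ± 0.818 and 1.13 ± 0.602 CPM and Slit3 at 0.664 ± 0.373 and 0.88 ± 0.35 CPM (SD, n = 3).

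Family sums of the levels per transcript length show how much of each class was present. Plexins with neuropilins summed to 99.5 ± 23.5 and 110 ± 24.2 TPM in precursors and differentiated libraries, and semaphorins to 86.5 ± 21.5 and 93.5 ± 17.8 TPM (SD, n = 3). Eph receptors summed to 44 ± 14 and 34.9 ± 8.88 TPM and ephrins to 19.6 ± 5.61 and 19.7 ± 4.6 TPM (SD, n = 3). Netrins summed to 34.2 ± 16.9 and 23.8 ± 4.1 TPM and their receptors to 8.18 ± 3.57 and 10.5 ± 2.17 TPM (SD, n = 3). The groups of each of these families overlapped. Robo sums were 3.91, 6.09 and 8.28 TPM and then 2.21, 3.61 and 4.04 TPM, which overlapped narrowly. Slit sums were 1.41, 1.62 and 2.77 TPM and then 1.15, 1.04 and 1.34 TPM, which did not overlap. The median log2 difference of all genes was -0.18 on log2(TPM + 1) and -0.27 on log2(TPM + 0.1), against -0.04 by edgeR with TMM. Sums of TPM carry this shift, and they were not tested.

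Guidance genes too low to test numbered 6. Robo3 had reads in differentiated 1 alone (9 reads), and Robo4 had 0 to 6 reads per library. Epha1, Epha8 and Ntn5 had at most 15, 19 and 25 reads in a library. Unc5cl, with at most 4 reads, and Unc50, at 44.6 ± 5.48 and 47.9 ± 3.51 CPM (SD, n = 3, edgeR adjusted p = 0.705), matched by symbol alone and are not netrin receptors. The strand setting of the counting is not known, so reads of a gene and of an overlapping entry cannot be told apart. In GRCr8 the entries of Epha7, Ntng1, Sema3e, Sema4d and Sema5a overlap another entry, and those of the other 7 genes that passed the test overlap 0.

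Proteins that carry guidance signals inside the cell moved in both directions. Of 53 such mediators tested, 7 were higher and 6 lower, beside 5.65% and 3.21% of all genes. Their median log2 difference was 0 (all genes -0.04). Chn2, a chimaerin that turns off Rac, rose from 13.3 ± 2.13 to 108 ± 8.84 CPM (log2 difference 3.03 ± 0.15 SE, edgeR adjusted p = 0.000216). Dpysl4, a collapsin response mediator protein, rose from 109 ± 14.9 to 350 ± 31.1 CPM (log2 difference 1.68 ± 0.14 SE, edgeR adjusted p = 0.000712). Mical3, of a family of enzymes that oxidise actin, rose from 18.9 ± 5.44 to 48.9 ± 11.9 CPM (log2 difference 1.37 ± 0.26 SE, edgeR adjusted p = 0.0186). Exchange factors of small GTPases were among those that fell. Tiam2, which acts on Rac, fell from 19.5 ± 3.38 to 6.39 ± 1.56 CPM (log2 difference -1.61 ± 0.24 SE, edgeR adjusted p = 0.0073). Ngef, which acts below Eph receptors, fell from 3.31 ± 0.249 to 1.23 ± 0.184 CPM (log2 difference -1.42 ± 0.26 SE, edgeR adjusted p = 0.0181). Leaving out 1 library ended the Mical3 call in 3 and the Ngef call in 4 of 6 fits. Without precursor 2 or differentiated 2, 4 mediators were higher (2.87% and 2.56% of all genes). Lower mediators numbered 2 without precursor 2, precursor 5, differentiated 2 or differentiated 5 (0.927%, 1.49%, 0.910% and 0.978% of all genes). Without differentiated 1 they numbered 3 (3.25% of all genes). With the block 10 mediators were higher and 15 lower (14.9% and 15.7% of all genes). Fyn, the Src family kinase known for its part in myelination, rose from 205 ± 15.9 to 435 ± 44.5 CPM (log2 difference 1.09 ± 0.12 SE, edgeR adjusted p = 0.00231), and is named here after its value was seen.

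Of 26 other guidance ligands, receptors and coreceptors tested, 1 was higher and 3 lower, beside 5.65% and 3.21% of all genes. Their median log2 difference was -0.01. Ptprd, a receptor phosphatase, rose from 25 ± 3.32 to 73 ± 15.8 CPM (log2 difference 1.55 ± 0.19 SE, edgeR adjusted p = 0.00391). Chl1, an adhesion molecule that serves as a semaphorin coreceptor, fell from 188 ± 43.4 to 52.5 ± 3.41 CPM (log2 difference -1.84 ± 0.18 SE, edgeR adjusted p = 0.00145). Met, the hepatocyte growth factor receptor that associates with B-type plexins, fell from 18.9 ± 2.7 to 6.1 ± 0.314 CPM (log2 difference -1.63 ± 0.17 SE, edgeR adjusted p = 0.00186). Nell2, a ligand of Robo3, fell from 51.6 ± 8.75 to 29.6 ± 2.72 CPM (log2 difference -0.80 ± 0.15 SE, edgeR adjusted p = 0.0214), and leaving out 1 library ended its call in 5 of 6 fits. Without differentiated 1, 2 genes of the list were higher (5.12% of all genes). With the block 6 were higher and 7 lower (14.9% and 15.7% of all genes).

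Some neuron and astrocyte markers moved in the same comparison. The neuron genes Stmn2 and Elavl4 fell from 23.1 ± 4 to 12.9 ± 0.996 CPM and from 24.9 ± 3.94 to 9.33 ± 1.23 CPM. Elavl3 rose from 18.5 ± 3.22 to 40.7 ± 2.71 CPM. Leaving out 1 library ended the Stmn2 call in 5 of 6 fits and those of Elavl4 and Elavl3 in 0. Rbfox3 and Snap25, defining genes of mature neurons, went from 1.02 ± 0.547 to 0.606 ± 0.0604 CPM and from 1.27 ± 0.51 to 0.538 ± 0.0842 CPM with no call. Tubb3 and Map2 were more abundant, at 154 ± 60.8 and 111 ± 20.5 CPM and at 132 ± 26.2 and 113 ± 4.86 CPM. Syt1 went from 10.7 ± 5.94 to 12.5 ± 1.89 CPM, and none of Tubb3, Map2 and Syt1 was called. Nefl, Nefm, Slc17a6, Gad1 and Gad2 were not called over all libraries either (log2 differences -0.18, -0.45, -0.97, -1.13 and -1.29). The astrocyte gene Gfap was at 3200, 4810 and 4210 CPM in precursors and at 6110, 6000 and 5700 CPM in differentiated libraries, with its groups apart and no call (log2 difference 0.54 ± 0.16 SE, edgeR adjusted p = 0.0849, and 0.0138 with the block). Aldh1l1, an astrocyte enzyme, rose from 17.4 ± 5.1 to 75.3 ± 16.8 CPM (log2 difference 2.11 ± 0.27 SE, edgeR adjusted p = 0.00434), in each fit that left out 1 library as well. Aldoc, Fgfr3, Gja1 and Agt were the other 4 astrocyte markers called higher. Their calls ended in 3, 2, 4 and 4 of the 6 fits that left out 1 library. Aqp4, Slc1a3, Slc1a2, Gjb2 and Sox9 were not called over all libraries (log2 differences 0.49, 0.29, -0.30, -0.25 and -0.05).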

How the data were processed

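RNA of 6 libraries (3 per group) was sequenced. Per the labels' protocols, RNA was taken up in ISOGEN, cleaned on columns and made into libraries with a stranded total RNA kit. Per the submitters' processing notes, StringTie 2.1.3b, HISAT2 2.1.0, Trimmomatic 0.38 and bcl2fastq 2.20.0 were used. The notes name a human build although the gene identifiers are rat. The rat build, annotation and strand setting: not given in the sources used here. The authors deposited a read count per gene, not normalized. They also deposited TPM, scaled by the authors per length to a fixed total, and FPKM, which was deposited by the authors and is not used here.

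Counts were tested in R 4.3.3 with edgeR 4.0.16 (TMM, its filter on low counts, quasi-likelihood F test) on all 6 libraries with group as the only term. Adjustment of p followed Benjamini and Hochberg over 17797 genes. SE was taken as the absolute log2 fold change over the root of its F statistic. The scripts were first tested on simulated data. Alternatives were a replicate block, DESeq2 1.42.0, library size alone, no filter, limma 3.58.1 on log2(TPM + 1) and log2(TPM + 0.1), and left-out libraries. Deviations of log2(CPM + 0.5) from group means correlated at 0.642, 0.395 and 0.566 between same-numbered libraries 1, 2 and 5. Between number 2 of either group and number 5 of the other they correlated at 0.153 and 0.156. Between number 1 and the other numbers the correlations were -0.539 to -0.361. On this basis the numbers, taken from the titles, were treated as pairs, a pairing that the labels do not state.

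Guidance genes given library by library were those called, and those not called but changed at least 2-fold at 1 mean CPM or more. The gene with the highest mean TPM of each family in either group was also given. So were up to 12 called with the block or without replicate 1 but not by edgeR with group as the only term. Up to 6 called genes were named per pathway list. The values of 1 gene that this rule names are not reported here. Others were added after their values were seen. The genes, lists and rules were chosen with earlier results of these data known.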

Additional observations from a re-analysis of the deposited data

How the results depend on the processing

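Of the 12 guidance genes called, the replicate block, DESeq2 and the fit without both replicate 1 libraries each called all 12. No filter called 11 (without Ephb1), and library size alone 10 (without Ephb1 and Sema3e). Limma on log2(TPM + 1) and on log2(TPM + 0.1) called 7 each, without Epha5, Ephb1, Ntng1, Sema3d and Sema3e. Limma with no filter called 4, and also lost Efna1, Sema3a and Sema5a. Guidance genes higher and lower numbered 14 and 17 with the replicate block, 5 and 2 with limma at either pseudocount, and 3 and 1 with limma and no filter. DESeq2 called 8 lower, and 12 were lower without both replicate 1 libraries. Leaving out 1 library gave 4 to 10 higher and 2 to 7 lower.

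Signalling mediators numbered 4 higher with limma at either pseudocount, 3 with limma and no filter and 4 to 7 without 1 library. Lower mediators numbered 15 with the block, 3 with limma on log2(TPM + 1), 1 with limma and no filter and 2 to 6 without 1 library. Other guidance ligands, receptors and coreceptors numbered 6 higher with the block, 2 with DESeq2, 0 with limma and no filter, 3 without both replicate 1 libraries and 1 to 2 without 1 library. Lower ones numbered 7 with the block, 6 with DESeq2, 5 without both replicate 1 libraries and 2 to 4 without 1 library. Of all genes, 14.9% were higher and 15.7% lower with the block, and 7.29% and 5.98% with DESeq2. Without both replicate 1 libraries the shares were 8.69% and 8.29%. Limma called 2.72% higher and 5.61% lower on log2(TPM + 1), 2.79% and 5.96% on log2(TPM + 0.1), and 1.04% and 1.60% with no filter. Without 1 library, 2.56% to 5.12% of all genes were higher and 0.910% to 3.25% lower. The cause of these changes in counts was not tested.

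Without 1 library the sign changed for 18 of 67 tested guidance genes, 0 of them called. The groups of the called genes did not overlap, so leaving out 1 library could hardly change their sign. The same count over all genes was not made. Among the genes picked by the naming rule, the sign changed for Efnb1, Ntn1 and Unc5c. Efnb1 was at -0.09 in each limma fit and -0.01 to 0.32 without 1 library, Ntn1 at -0.38 to 0.21 without 1 library, and Unc5c at -0.03 with library size alone, -0.11 in each limma fit and -0.06 to 0.39 without 1 library.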

Other observations

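Several guidance genes that were not called varied by replicate number in both groups alike. Plxnd1, Sema3c, Nrp1, Epha4 and Plxnc1 were highest in replicate 1 of each group. Epha4, an Eph receptor that binds both classes of ephrins, was at 23.8, 13.3 and 13.3 CPM in precursors and at 24.6, 14.1 and 11.9 CPM in differentiated libraries. Plxnc1, the receptor of Sema7a, was at 44.8, 30.7 and 36.4 CPM in precursors and at 42.6, 26 and 28.8 CPM in differentiated libraries. Plxnb1, Ephb2, Plxna3 and Sema6a were instead lowest in replicate 1 of each group, with Plxna3 at 19.4, 27.7 and 33.5 CPM in precursors and at 15.6, 26.4 and 33.8 CPM in differentiated libraries. Of 12 microglia markers tested, 10 were highest in replicate 1 of each group, as were 6 of 9 fibroblast and pericyte markers and 5 of 9 endothelial markers. The same held for 3 of 10 myelin markers and 3 of 8 Schwann, choroid and ependymal markers. Of the rest it held for 1 of 11 astrocyte, 0 of 13 neuron and 0 of 8 precursor or lineage markers. The same count over all genes was not made. The fibroblast collagen Col3a1 was at 221, 50.1 and 53.6 CPM in precursors and at 126, 22.1 and 24.6 CPM in differentiated libraries. Ptprc, the leukocyte gene for CD45, was at 145, 37.3 and 38.2 CPM in precursors and at 85.4, 26.9 and 22.2 CPM in differentiated libraries. The part of these cells in the values of the guidance genes was not tested.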
